A study of Mus musculus with 9 samples.

Results

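The genes described here are 48 cell cycle genes, taken from a list of symbols and matched to the symbols of the deposited count table, which holds 13593 genes. All 48 were found, and all 48 passed the filter on low counts. They comprise 21 genes of the G1/S transition and DNA replication, 22 genes of G2 and mitosis (G2/M), the 3 D cyclins and 2 inhibitors of cyclin-dependent kinases (CDKs). Gene expression was measured by RNA-seq in macrophages grown from the marrow of wild type C57BL/6 mice aged 6 weeks, in medium with 15% supernatant of L929 cells, a fibroblast line that secretes the macrophage growth factor M-CSF, over 7 days. The cells of all 9 libraries received a protein at 4 nM for 4 h: bovine serum albumin (BSA), the control protein, in 3 libraries, the chemokine CX3CL1 (fractalkine) in 3, and the chemokine CCL26 (eotaxin-3) in 3. No group went without added protein. The labels do not say whether replicates came from separate mice or cultures, so the p-values may reflect only technical variation among libraries.

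Cells commit to division when cyclin D and its kinases, and then cyclin E, inactivate the retinoblastoma family and release E2F factors, which switch on the genes for licensing replication origins and copying DNA. Later, the genes for mitosis are switched on. Many of them are controlled through a promoter element called the cell cycle genes homology region (CHR), bound by the DREAM and MuvB complexes. It often occurs together with CCAAT boxes bound by NF-Y. Macrophages grown in M-CSF keep dividing for some days, and CDK inhibitors such as p21 and p27 restrain that division. In bulk RNA, fewer dividing cells and less RNA of a gene per cell cannot be told apart.

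Library totals ran from 16923982 to 23198324 counts, of which the 48 genes took 71792 to 109727 counts, or 0.404% to 0.474%. CX3CL1 replicate 1 stood apart: 35.2% of all tested genes differed by more than 2-fold from the median of the other 8 libraries there, against 0.527% to 1.53% in each of the others. It also had 1193 genes at 0 counts, against 80 to 170. The fit is therefore given with all 9 libraries and without CX3CL1 replicate 1. The 11 macrophage markers summed to between 25954 and 45970 CPM (counts scaled by TMM library size) in every library. The 11 granulocyte precursor markers in the table summed to 94.4 to 199 CPM. Among them Mmp8 was at 15.6 to 32.8 CPM, S100a8 at 13.8 to 67.7 and S100a9 at 20.5 to 69.3, and the primary granule genes Mpo, Elane, Prtn3 and Ctsg were under 3 CPM in every library.

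The promoters of the 2 phases differed in the motifs they held. Promoter windows from RefSeq on GRCm38.p6, from 250 bases before to 50 bases after each start site, were found for 40 of the 48 genes (not for Ccna2, Gins2, Ccnd2, Tpx2, Aurkb, Mcm4, Ccnd1 and Ccne2), and letters were searched on both strands. The E2F core (TTTCGCG or TTTGGCG or TTTCCCG) was in 9 of 18 G1/S genes (50%) and in 2 of 19 G2/M genes (10.5%), beside 11.2% of the 9969 genes of the count table with a promoter and 6.38% of all 27025 genes in the promoter table. The CHR (TTTGAA or TTCGAA) was in 4 of 18 G1/S genes (22.2%) and in 15 of 19 G2/M genes (78.9%), beside 16.6% and 21.7%. The CCAAT box was in 12 of 18 (66.7%) and 16 of 19 (84.2%), beside 42.9% and 41.1%. Both CDK inhibitors lacked the E2F core and the CHR in these windows. The promoters of 5 members are printed as chosen examples. They are the helicase genes Mcm5 and Mcm6 with E2F cores, the mitotic genes Mki67 and Cenpf, and the inhibitor gene Cdkn1b. Each line gives the 200 bases before the start, with the motifs in capitals, and overlapping motifs run together.
Mcm5 (chr8:75109309-75109508, plus strand): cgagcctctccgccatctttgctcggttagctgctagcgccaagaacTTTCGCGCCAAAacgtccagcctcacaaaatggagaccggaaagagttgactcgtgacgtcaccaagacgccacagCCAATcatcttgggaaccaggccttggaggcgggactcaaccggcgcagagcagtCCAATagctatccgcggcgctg
Mcm6 (chr1:128359706-128359905, minus strand): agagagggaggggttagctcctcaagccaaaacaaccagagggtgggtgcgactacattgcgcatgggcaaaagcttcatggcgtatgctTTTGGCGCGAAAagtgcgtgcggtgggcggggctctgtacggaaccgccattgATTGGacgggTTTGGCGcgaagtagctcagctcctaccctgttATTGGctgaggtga
Mki67 (chr7:135716380-135716579, minus strand): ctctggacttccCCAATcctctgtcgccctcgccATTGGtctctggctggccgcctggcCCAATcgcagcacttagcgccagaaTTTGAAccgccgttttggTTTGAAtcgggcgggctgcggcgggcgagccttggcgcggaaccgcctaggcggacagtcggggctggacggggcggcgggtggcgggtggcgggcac
Cenpf (chr1:189688087-189688286, minus strand): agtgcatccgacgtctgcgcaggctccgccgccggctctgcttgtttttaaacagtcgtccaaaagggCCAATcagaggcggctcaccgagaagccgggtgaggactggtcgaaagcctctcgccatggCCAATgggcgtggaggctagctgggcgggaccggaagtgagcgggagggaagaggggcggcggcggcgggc
Cdkn1b (chr6:134920201-134920400, plus strand): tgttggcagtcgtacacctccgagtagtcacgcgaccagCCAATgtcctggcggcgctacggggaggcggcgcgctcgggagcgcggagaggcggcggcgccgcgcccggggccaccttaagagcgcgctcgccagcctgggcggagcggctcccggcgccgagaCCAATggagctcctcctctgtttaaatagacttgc
In Mcm5, E2F cores on opposite strands overlap, starting at positions -153 and -148, and in Mcm6 the overlapping pair starts at -110 and -105, with a further core at -47. The printed stretches of both also hold CCAAT boxes, at -77 and -22 in Mcm5 and at -57 and -14 in Mcm6. In Mki67, CHR letters start at -116 and -98, downstream of CCAAT boxes at -188, -166 and -141. Cenpf has CCAAT boxes at -132 and -71, and its CHR letters lie past the start site, outside the printed stretch. Cdkn1b shows CCAAT boxes only, at -161 and -35. A match of letters does not show that a factor bound there.

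With BSA, levels per kilobase of summed exon length spanned a wide range. Pcna, the sliding clamp of DNA polymerase, was highest at 169.9 ± 1.20 CPM per kb (SD, n = 3), and Cdkn1a, which encodes p21, was next at 108 ± 2.30. Mcm3 led the origin licensing genes at 50.5 ± 1.43 CPM per kb. Mki67, the gene of the proliferation antigen Ki-67, led the spindle and chromosome genes at 41.0 ± 0.559, and Ccnb2, a mitotic cyclin, led the mitotic entry genes at 33.2 ± 1.36. Cdc20, an activator of the anaphase-promoting complex, led the checkpoint and kinetochore genes at 28.4 ± 1.02, and the transcription factor gene E2f1 led the E cyclin and E2F genes at 19.8 ± 1.93. Among the D cyclins, Ccnd1 was at 11.7 ± 0.843 CPM per kb, Ccnd3 at 2.91 ± 0.210 and Ccnd2, the lowest of all 48 genes, at 0.897 ± 0.0264.

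**Figure D1:**
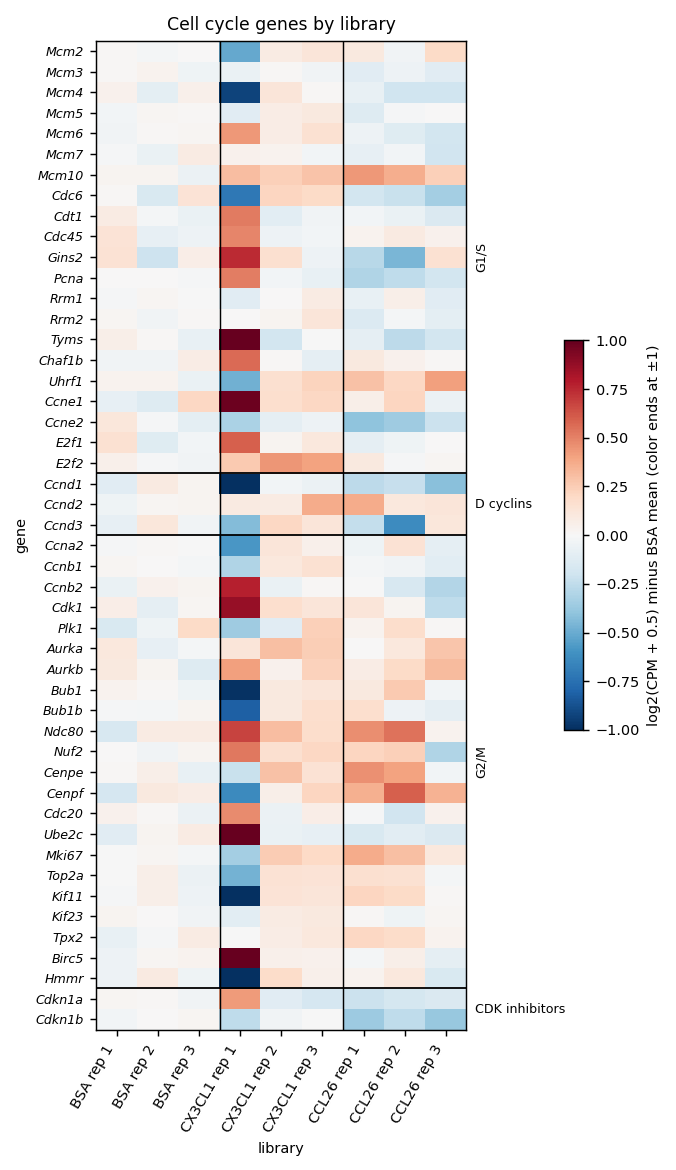
Each row is 1 of the 48 genes, grouped by phase, and each column is 1 library; the color is log2(CPM + 0.5) minus the mean of the 3 BSA libraries, with the scale ending at ±1. CX3CL1 replicate 1 differs from the other columns in both directions, while the other 8 columns are pale.

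With all 9 libraries, no member passed edgeR's quasi-likelihood test (adjusted p under 0.05) in any of the 3 comparisons. Among all tested genes, 0% were called between CX3CL1 and BSA, 0.434% between CCL26 and BSA and 0.41% between CCL26 and CX3CL1. At an unadjusted p under 0.05, edgeR gave 2, 3 and 4 of the 48 members in that order. DESeq2 called 0, 0 and 1 (E2f2, lower with CCL26 than with CX3CL1, adjusted p = 0.0417), and limma-voom called 0 in each comparison. CX3CL1 replicate 1 enters the spread that all comparisons share, and leaving it out gave edgeR calls for 1, 11 and 7 members, against 0.332%, 19% and 10.1% of all tested genes. The member called between CX3CL1 and BSA was higher, beside 0.0227% of all genes called higher and 0.31% lower. Between CCL26 and BSA 6 members were higher and 5 lower, beside 9.74% and 9.26% of all genes, and between CCL26 and CX3CL1 0 were higher and 7 lower, beside 5.47% and 4.64%. The share of members called between CCL26 and BSA, 22.9%, was thus near that of all genes. Adjusted p-values below are from edgeR without CX3CL1 replicate 1 unless stated.

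The G1/S and G2/M genes were set side by side as a mean of log2(CPM + 0.5) in each library, minus the mean of the BSA libraries. For G1/S genes these levels were 0.033, -0.039 and 0.006 with BSA, 0.154, 0.067 and 0.077 with CX3CL1 and -0.044, -0.055 and -0.046 with CCL26. All 3 CX3CL1 libraries lay above every BSA library, and all 3 CCL26 libraries lay below. For G2/M genes they were -0.021, 0.017 and 0.005 with BSA, -0.028, 0.108 and 0.128 with CX3CL1 and 0.124, 0.140 and -0.018 with CCL26. CX3CL1 replicate 1 and CCL26 replicate 3 fell within or below the BSA range, and the other 4 treated libraries lay above it. The spread within groups, as a pooled SD, was 0.0348 for G1/S and 0.0709 for G2/M, and no test was made of these shifts.

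**Figure D2:**
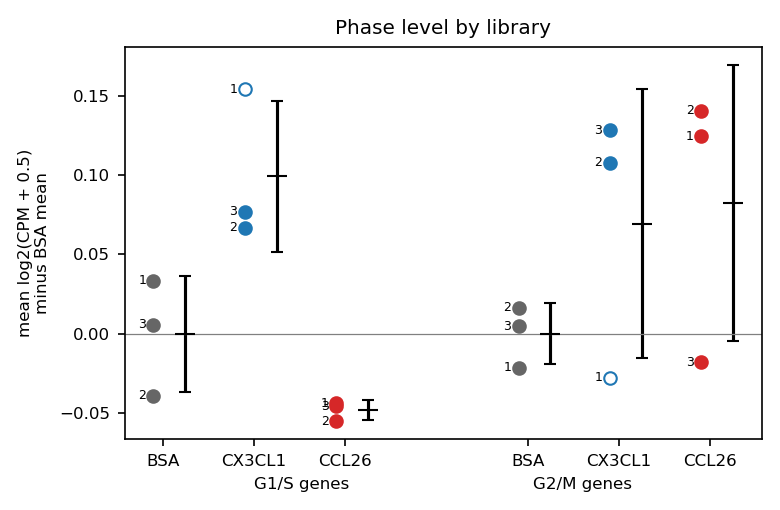
Points are libraries, numbered by replicate, with the mean log2(CPM + 0.5) of the 21 G1/S genes or the 22 G2/M genes minus the BSA mean on the vertical axis; bars give the group mean ± SD (n = 3), and the open circle is CX3CL1 replicate 1. The CCL26 points lie below the BSA points for G1/S genes, and 2 of 3 lie above them for G2/M genes.

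Between CX3CL1 and BSA, median log2 fold changes over genes were 0.15 for G1/S and 0.06 for G2/M with all 9 libraries, and 0.07 and 0.13 without CX3CL1 replicate 1, against -0.00510 and -0.00149 over all tested genes. The order of the phases therefore turned on that library. Without it, 20 of 22 G2/M genes and 14 of 21 G1/S genes had positive values, beside 6571 of 13245 tested genes. In both remaining CX3CL1 libraries, 14 of 22 G2/M genes and 8 of 21 G1/S genes lay above every BSA library, beside 12.6% of all tested genes, and 0 and 1 lay below, beside 13.2%. Between CCL26 and BSA, the medians were -0.08 for G1/S and 0.07 for G2/M with all 9 libraries, and -0.08 and 0.08 without CX3CL1 replicate 1, against 0.00 and 0.01 over all genes. Of the G1/S genes 14 of 21 were negative in both fits, and of the G2/M genes 14 of 22 and 15 of 22 were positive. Over all tested genes, 6550 were positive and 6365 negative with all 9 libraries, and 6808 and 6437 without CX3CL1 replicate 1. Counting genes without overlap between the groups, 6 of 21 G1/S genes lay lower in all 3 CCL26 libraries, 0 of 22 G2/M genes did, and 2 genes of each phase lay higher, beside 16.5% lower and 16.6% higher of all genes. Between CCL26 and CX3CL1, the medians were -0.14 for G1/S and 0.03 for G2/M with all 9 libraries, and -0.11 and -0.06 without CX3CL1 replicate 1, against 0.02 and 0.00 over all genes. Against both remaining CX3CL1 libraries, 10 of 21 G1/S genes and 4 of 22 G2/M genes lay lower in all CCL26 libraries, beside 18.5% of all genes, and 1 of each phase lay higher, beside 18.4%. The comparisons share control libraries and are not independent of each other.

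Of the 11 origin licensing genes, which load and fire the replicative helicase, 1 was called against BSA. Between CCL26 and BSA, 19% of all tested genes were called. Mcm10 (chr2:4989714-5012791, minus strand), a helicase cofactor, was at 32.0, 32.1 and 30.1 CPM with BSA, 39.1, 37.1 and 38.4 CPM with CX3CL1 and 42.6, 40.5 and 37.0 CPM with CCL26. All 6 treated libraries lay above the 3 BSA libraries, and Mcm10 rose with CCL26 (log2 fold change 0.35, SE 0.0854, adjusted p = 0.00392); with CX3CL1 it did not pass (log2 fold change 0.27, SE 0.0953, adjusted p = 0.463). Mcm6 (chr1:128331590-128359664, minus strand), a helicase subunit, was at 214, 222 and 223 CPM with BSA, 296, 231 and 244 CPM with CX3CL1 and 212, 202 and 194 CPM with CCL26. It was lower with CCL26 than with CX3CL1 (log2 fold change -0.23, SE 0.0511, adjusted p = 0.00401), and its CCL26 libraries lay below all BSA libraries, with the comparison with BSA not called (adjusted p = 0.0904).

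Mcm4, a further helicase subunit, was at 87.6, 79.4 and 87.7 CPM with BSA, 44.4, 92.5 and 85.7 CPM with CX3CL1 and 80.4, 73.9 and 73.8 CPM with CCL26. Its CX3CL1 replicate 1 value was the lowest of the 9, and without that library Mcm4 was lower with CCL26 than with CX3CL1 (log2 fold change -0.22, SE 0.0719, adjusted p = 0.0475). Cdc6 (chr11:98907801-98923940, plus strand), which loads the helicase at origins, was at 14.2, 12.6 and 15.5 CPM with BSA, 8.34, 16.4 and 16.1 CPM with CX3CL1 and 12.3, 12.0 and 11.0 CPM with CCL26, with all CCL26 libraries below both remaining CX3CL1 libraries (log2 fold change -0.46, SE 0.143, adjusted p = 0.0384). Mcm3 showed no call, at 191, 194 and 183 CPM with BSA, 180.4, 191 and 185 CPM with CX3CL1 and 175, 183 and 175 CPM with CCL26. Across the 11 licensing genes, 1 rose and 0 fell between CCL26 and BSA, 0 rose and 3 fell between CCL26 and CX3CL1, and none was called between CX3CL1 and BSA. Of all tested genes, 9.74% rose and 9.26% fell in the first of these comparisons, and 5.47% and 4.64% in the second. In the last, 0.332% were called.

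Genes of nucleotide supply and the replication fork gave the smallest adjusted p of the members. Pcna (chr2:132249162-132253314, minus strand) was at 409, 410.0 and 405 CPM with BSA, 581, 399 and 387 CPM with CX3CL1 and 331, 342 and 358 CPM with CCL26. The CCL26 libraries lay below all other libraries, and Pcna fell with CCL26 against BSA (log2 fold change -0.24, SE 0.0395, adjusted p = 6.12e-05) and was lower than with CX3CL1 (log2 fold change -0.19, SE 0.0439, adjusted p = 0.00488). Uhrf1 (chr17:56303321-56323486, plus strand), which maintains DNA methylation at the replication fork, was at 95.7, 95.7 and 89.4 CPM with BSA, 66.8, 104 and 109 CPM with CX3CL1 and 115, 108 and 124 CPM with CCL26. Every CCL26 library lay above every BSA library (log2 fold change 0.31, SE 0.0608, adjusted p = 0.000609). The remaining 4 genes of this group, Rrm1, Rrm2, Tyms and Chaf1b, were not called in any comparison. The GENCODE annotation holds pseudogenes of Pcna, Tyms, Ccnb1, Ccnb2 and Ccnd3, with which reads can be shared.

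Of the E cyclins, which activate CDK2 at the start of S phase, Ccne2 fell with CCL26 and Ccne1 was not called. Ccne2 (chr4:11191351-11204779, plus strand) was at 21.3, 19.6 and 18.3 CPM with BSA, 15.7, 18.5 and 19.0 CPM with CX3CL1 and 14.8, 15.3 and 16.9 CPM with CCL26, with CCL26 below all BSA libraries (log2 fold change -0.33, SE 0.115, adjusted p = 0.0434); 17.4% of its exon sequence overlaps Ints8. Ccne1 was at 18.5, 17.8 and 22.6 CPM with BSA, 39.1, 22.0 and 22.6 CPM with CX3CL1 and 20.4, 22.8 and 18.8 CPM with CCL26, where CX3CL1 replicate 1 was the highest library. The E2F activator gene E2f2 (chr4:136172394-136196057, plus strand) was the only member called between CX3CL1 and BSA, at 32.8, 31.4 and 30.9 CPM with BSA, 38.0, 43.3 and 42.1 CPM with CX3CL1 and 34.0, 31.4 and 32.1 CPM with CCL26. Both remaining CX3CL1 libraries lay above all BSA and CCL26 libraries, and E2f2 was called higher with CX3CL1 in that fit (log2 fold change 0.43, SE 0.0929, adjusted p = 0.0409). It was not called with all 9 libraries (adjusted p = 0.711), and with 1 more library left out the call was kept in 2 of 8 fits, with adjusted p up to 0.448. It was lower with CCL26 than with CX3CL1 (log2 fold change -0.39, SE 0.0924, adjusted p = 0.00624). E2f1 was at 69.0, 57.0 and 61.0 CPM with BSA, 94.2, 63.5 and 67.0 CPM with CX3CL1 and 58.4, 60.2 and 62.4 CPM with CCL26, without a call.

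The D cyclins answer growth factor signals. Ccnd1 (chr7:144929931-144939925, minus strand), cyclin D1, was at 50.6, 58.4 and 55.8 CPM with BSA, 18.4, 53.7 and 52.7 CPM with CX3CL1 and 45.7, 46.6 and 40.9 CPM with CCL26. Leaving aside CX3CL1 replicate 1, which was lowest, the CCL26 libraries had the lowest values, and Ccnd1 fell with CCL26 (log2 fold change -0.30, SE 0.0780, adjusted p = 0.00706); 23.4% of its exon sequence overlaps LTO1. Ccnd2 was at 8.16, 8.57 and 8.61 CPM with BSA, 9.01, 8.97 and 11.1 CPM with CX3CL1 and 11.1, 9.12 and 9.23 CPM with CCL26, and Ccnd3 at 24.1, 27.6 and 24.9 CPM with BSA, 18.7, 29.4 and 27.8 CPM with CX3CL1 and 21.6, 16.3 and 27.6 CPM with CCL26. Neither was called against BSA (adjusted p = 0.368 and 0.272 with CCL26), and the CCL26 libraries of Ccnd3 spanned the BSA range.

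Both CDK inhibitors fell with CCL26. Cdkn1a (chr17:29090976-29100727, plus strand), p21, an inhibitor of CDK2 and a target of p53, was at 389, 386 and 373 CPM with BSA, 515, 355 and 340.3 CPM with CX3CL1 and 329, 338 and 347 CPM with CCL26. The CCL26 libraries lay below all BSA libraries (log2 fold change -0.18, SE 0.0394, adjusted p = 0.00195), and CX3CL1 replicate 1 was the highest of the 9. Cdkn1b (chr6:134920401-134925513, plus strand), p27, whose promoter is printed above, was at 86.6, 88.8 and 89.9 CPM with BSA, 74.2, 86.1 and 88.1 CPM with CX3CL1 and 68.8, 74.2 and 68.0 CPM with CCL26. CCL26 lay below BSA without overlap (log2 fold change -0.33, SE 0.0611, adjusted p = 0.000327) and below both remaining CX3CL1 libraries (log2 fold change -0.31, SE 0.0677, adjusted p = 0.00330). With CX3CL1, neither was called against BSA (adjusted p = 0.318 for Cdkn1a and 0.984 for Cdkn1b).

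**Figure D3:**
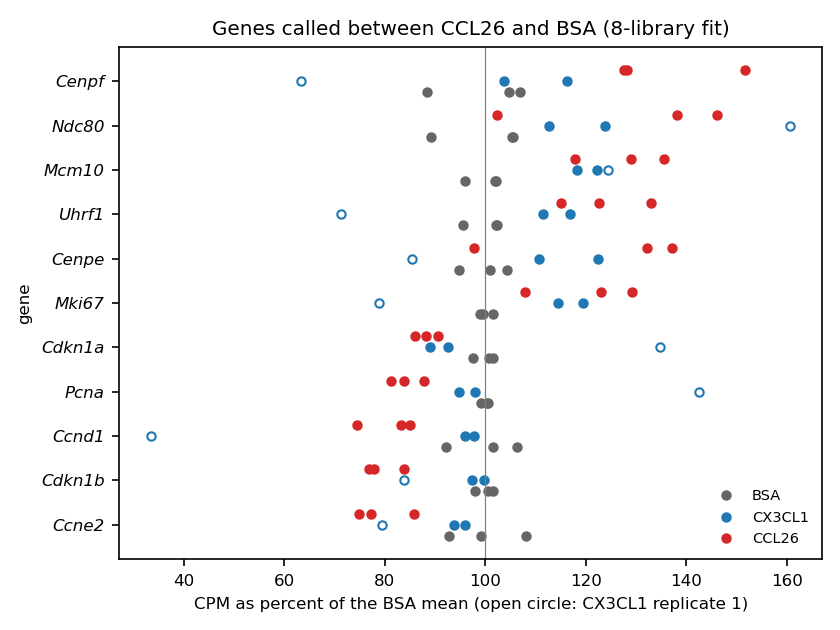
The 11 genes called between CCL26 and BSA without CX3CL1 replicate 1, each library as a point in percent of the gene's BSA mean CPM; open circles are CX3CL1 replicate 1. The 6 genes that rose are at the top and the 5 that fell at the bottom, and for Ndc80 and Cenpe 1 CCL26 library lies among the BSA libraries.

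Among mitotic entry genes, the cyclins, Cdk1 and kinases that start mitosis, none of 7 was called against BSA. Over all tested genes, 19% were called between CCL26 and BSA and 0.332% between CX3CL1 and BSA. Ccnb1 (chr13:100778650-100786570, minus strand), cyclin B1, was at 125, 124 and 122 CPM with BSA, 100.3, 133 and 137 CPM with CX3CL1 and 122, 120.1 and 114 CPM with CCL26. It was lower with CCL26 than with both remaining CX3CL1 libraries (log2 fold change -0.18, SE 0.0573, adjusted p = 0.0468). Ccnb2 was at 48.4, 52.3 and 51.7 CPM with BSA, 87.3, 48.5 and 51.2 CPM with CX3CL1 and 50.6, 45.4 and 41.4 CPM with CCL26, and CX3CL1 replicate 1 was the highest.

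Checkpoint, kinetochore and anaphase genes gave 3 calls among 8, all higher with CCL26 than with BSA. Over all tested genes, 9.74% were called higher and 9.26% lower in that comparison. Ndc80 (chr17:71496100-71526857, minus strand), a microtubule-binding kinetochore subunit, was at 25.2, 29.9 and 29.8 CPM with BSA, 45.5, 35.1 and 31.9 CPM with CX3CL1 and 39.1, 41.4 and 29.0 CPM with CCL26 (log2 fold change 0.37, SE 0.112, adjusted p = 0.0199). Cenpe (chr3:135212537-135273611, plus strand), a kinetochore motor, was at 67.0, 69.2 and 62.8 CPM with BSA, 56.7, 81.2 and 73.4 CPM with CX3CL1 and 91.0, 87.7 and 64.9 CPM with CCL26 (log2 fold change 0.30, SE 0.0896, adjusted p = 0.0209). For both, CCL26 replicate 3 lay within the BSA range and the other CCL26 libraries lay above it. Cenpf (chr1:189640606-189688086, minus strand), a large kinetochore-associated protein, was at 18.7, 22.6 and 22.1 CPM with BSA, 13.4, 21.9 and 24.6 CPM with CX3CL1 and 27.1, 32.1 and 27.0 CPM with CCL26, with all CCL26 libraries above all BSA libraries (log2 fold change 0.45, SE 0.109, adjusted p = 0.00439). Cdc20 was at 54.8, 53.4 and 51.1 CPM with BSA, 73.9, 51.0 and 55.6 CPM with CX3CL1 and 52.6, 46.4 and 54.7 CPM with CCL26, without a call.

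Of the spindle, chromosome and cytokinesis genes, 1 of 7 was called. It was higher with CCL26 than with BSA, as were 9.74% of all tested genes. Mki67 (chr7:135689784-135716361, minus strand) was at 411, 419 and 408 CPM with BSA, 325, 493 and 472 CPM with CX3CL1 and 533, 507 and 445 CPM with CCL26. Each CCL26 library lay above each BSA library (log2 fold change 0.27, SE 0.0475, adjusted p = 0.000197), and so did both remaining CX3CL1 libraries, with a test that did not pass (log2 fold change 0.23, SE 0.0529, adjusted p = 0.0634). All 7 genes of this group had positive values between CX3CL1 and BSA without CX3CL1 replicate 1, from 0.04 to 0.23. So did 6571 of 13245 tested genes. None of the 7 was called there, and with all 9 libraries 4 of the 7 were positive.

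Several of these calls were not kept when 1 more library was left out. Leaving out each of the other 8 libraries in turn, with CX3CL1 replicate 1 out, kept the CCL26 against BSA calls of Mcm10, Pcna, Uhrf1, Cenpf, Mki67, Cdkn1a and Cdkn1b in all 8 fits. Ccnd1 was kept in 7 (not without BSA replicate 2), Ndc80 in 5 (not without BSA replicate 1 or CCL26 replicate 1 or 2) and Cenpe in 4 (not without BSA replicate 1 or 3 or CCL26 replicate 1 or 2). Ccne2 was kept in 2, without BSA replicate 3 or CCL26 replicate 3. Between CCL26 and CX3CL1, Mcm6 and Cdkn1b were kept in 7 of 8 (not without CX3CL1 replicate 3), Pcna in 7 (not without CX3CL1 replicate 2) and E2f2 in 6 (not without CX3CL1 replicate 2 or 3). Cdc6 was kept in 3, without any 1 of the BSA libraries, Mcm4 in 1, without CCL26 replicate 1, and Ccnb1 in 0. The 2 fits that kept E2f2 between CX3CL1 and BSA were those without CCL26 replicate 2 or 3. Dropping CCL26 replicate 3 as well raised the members called between CCL26 and BSA from 11 to 17 (10 higher and 7 lower). The share of all genes called in that fit is not given here, so the rise cannot be told apart from 1 over all genes.

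CX3CL1 replicate 1 did not shift the members in 1 direction. It lay outside the range of the other 8 libraries for 36 of the 48, above it for 18 and below it for 18. For G1/S genes it lay above in 9 and below in 5, and for G2/M genes above in 8 and below in 12. The share of all genes outside that range was not counted. In all, 7 of 48 members differed from the median of the other libraries by more than 2-fold there, beside 35.2% of all tested genes. The median size of the difference was 0.552 on the log2 scale over the members and 0.744 over all tested genes. Birc5, which encodes survivin, Ube2c and Tyms were higher, with log2 differences of 1.68, 1.26 and 1.10. Hmmr, Ccnd1, Kif11 and Bub1 were lower, at -1.57, -1.46, -1.09 and -1.05. No member differed by more than 2-fold in any other library. These 7 genes were chosen after their values were seen.

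Exon length moved with these deviations. Across the 48 members, Spearman's rho between length and the deviation of CX3CL1 replicate 1 was -0.42, and across 12905 tested genes it was -0.50; genes of 1 library are not independent. The shortest 16 members, genes of up to 3589 bp, had a median deviation of 0.52 on the log2 scale, and the longest 16, of 5229 bp or more, had -0.40. The same measure over the members was -0.36, -0.07 and -0.42 in the BSA libraries, 0.31 and 0.22 in CX3CL1 replicates 2 and 3, and 0.49, 0.30 and -0.01 in the CCL26 libraries. Across all tested genes it was at most 0.20 in size in these 8 libraries, reaching that in CCL26 replicates 1 and 2. The 6 members that rose with CCL26 had exon lengths of 7692, 4259, 6493, 8620, 15433 and 10061 bp, and the 5 that fell had 2400, 3495, 4709, 3553 and 4552 bp. With a length offset per library, chosen after seeing the data, all 11 calls were kept and Mcm6 was called lower as well (log2 fold change -0.13, adjusted p = 0.0441). The offset made the log2 fold changes of all 6 members that rose smaller: Cenpf went from 0.45 to 0.35, Mki67 from 0.27 to 0.21, Cenpe from 0.30 to 0.25, Ndc80 from 0.37 to 0.34, Mcm10 from 0.35 to 0.32 and Uhrf1 from 0.31 to 0.30. Of the 5 that fell, Pcna (-0.24 to -0.22), Ccne2 (-0.335 to -0.326) and Cdkn1a (-0.18 to -0.17) came nearer to 0, and Ccnd1 (-0.30 to -0.32) and Cdkn1b (-0.33 to -0.34) moved away from it. The part of length in the differences was not tested further.

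**Figure D4:**
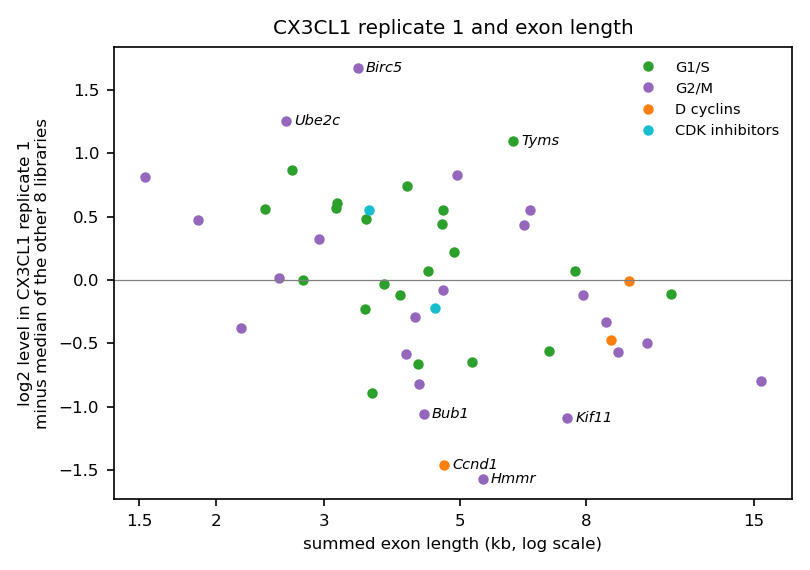
Each point is 1 of the 48 genes, with summed exon length in kb on a log axis and the log2 level in CX3CL1 replicate 1 minus the median of the other 8 libraries on the vertical axis; genes beyond a 2-fold difference are named. Shorter genes tend to lie above 0 and longer genes below it.

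Other genes of the pathway were called in both directions between CCL26 and BSA without CX3CL1 replicate 1, and none with all 9 libraries. Without that library, 9.74% of all tested genes were called higher and 9.26% lower in this comparison. Of 30 other DNA replication genes, 3 rose and 1 fell. Pold1, the catalytic subunit of DNA polymerase delta, rose by 0.36 on the log2 scale (adjusted p = 0.00633), Clspn by 0.28 (0.0124) and the origin kinase gene Cdc7 by 0.44 (0.0270). Of 40 other mitosis genes, 3 rose and 2 fell: the kinetochore gene Knl1 changed by 0.58, the chromosome motor gene Kif4 by 0.45, Dlgap5 by 0.35 and the CDK subunit genes Cks1b and Cks2 by -0.29 and -0.37. Medians over these lists were 0.01 and 0.08.

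Among 26 cell cycle control genes, 3 rose and 4 fell between CCL26 and BSA, beside 9.74% and 9.26% of all tested genes. Fbxw7, which targets cyclin E for degradation, changed by -0.82 (adjusted p = 9.08e-10), the cyclin D kinase gene Cdk6 by 0.56 (1.12e-06), and Ccng1 and Ccng2 by -0.29 and -0.27. The E2F activator gene E2f3 changed by 0.28 (0.0332), the pocket protein gene Rbl1 by 0.25 (0.0139) and the E2F repressor gene E2f6 by -0.26 (0.0230). Of 15 p53 targets tested, 2 rose and 3 fell, with Mdm2, the p53 inhibitor, at -0.27 (adjusted p = 7.60e-07), Plk2 at 0.19, Aen at 0.37 and Sesn2 at -0.21. The list holds Ccng1 too.

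Cell type markers moved in the same comparison. Of 11 macrophage markers, 9 fell between CCL26 and BSA without CX3CL1 replicate 1, beside 9.26% of all tested genes. The 11 markers summed to 25954 to 26443 CPM with CCL26 and 32026 to 32554 with BSA. The granulocyte precursor markers summed to 107 to 110 CPM with CCL26 and 94.4 to 100.4 with BSA, with S100a8 and S100a9 higher. Of these 11 markers, 2 were called higher and 9 were not called, and 3 had negative log2 fold changes, down to -0.575. The progenitor markers summed to 4.17 to 5.81 CPM with CCL26 and 1.42 to 3.18 with BSA, with Kit higher. CX3CL1 replicate 1 had 199 CPM of the granulocyte list, 260.6 CPM of the erythroid and megakaryocyte list (nearly all Pf4), and 45970 CPM of the macrophage list. Of 5 inflammatory monocyte markers, Vcan rose and F13a1 fell between CCL26 and BSA without CX3CL1 replicate 1. The lymphocyte gene Cd79b and the megakaryocyte gene Pf4 fell in that fit. With all 9 libraries, no marker of any of these lists was called between CCL26 and BSA. The table held 2 of 9 lymphocyte markers and 2 of 7 erythroid and megakaryocyte markers. Stromal markers, 4 of 9 in the table, summed to 0.821 to 2.58 CPM and none was called. The part of these markers in the cell cycle differences was not tested.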

How the data were processed

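RNA was measured by RNA-seq in 9 libraries of mouse marrow macrophages. Counts per gene were deposited by the authors, as unnormalized whole numbers. Per the submitters' processing notes, the tools were STAR, featureCounts and MultiQC (no versions), with GRCm38 and mm10 as builds. The strand setting was not given in the sources used here, so reads of overlapping genes cannot be told apart. No value column was left unmapped (0), and 1333 of 1343 genes without a symbol were named from GENCODE M21; coordinates and exon lengths come from it.

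Genes were filtered by edgeR's filterByExpr and fitted by its quasi-likelihood test (version 4.0.16, R 4.3.3) with TMM scaling and group as the only term, over 12915 genes with all 9 libraries and 13245 without CX3CL1 replicate 1; Benjamini-Hochberg adjusted p under 0.05 was a call. CPM values use TMM library sizes, and phase levels use a pseudocount of 0.5 CPM. Alternatives were DESeq2 (1.42.0), limma-voom (3.58.1) with and without quality weights, other scaling and filters, a replicate block, only the 6 libraries compared, and leaving out each library. A gene length offset was added after seeing the data. Members and lists were chosen with earlier results of these data known. Genes named with values are those called in either fit, the 3 of smallest p per comparison without CX3CL1 replicate 1, the D and E cyclins, the CDK inhibitors and the gene of the highest level per length in each role; others are named as chosen after their values were seen. The values of 1 called gene outside the members are not reported here.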

Additional observations from a re-analysis of the deposited data

How the results depend on the processing

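With all 9 libraries, calls among the members were 0 in each comparison under most alternatives. For settings other than the edgeR fits above, shares over all genes are not given here, so the counts describe the members only. Counts are given for CX3CL1 and for CCL26, each against BSA, and then for CCL26 against CX3CL1. They were 1, 11 and 6 under limma-voom with quality weights. Without CX3CL1 replicate 1 they were 1, 11 and 7 under edgeR, 2, 11 and 8 under DESeq2, 2, 11 and 7 under limma-voom and 1, 12 and 7 with a length offset. Only the 6 libraries of CCL26 and BSA gave 11, and DESeq2 with all 9 libraries gave 1 for CCL26 against CX3CL1. Leaving out libraries, alone or with CX3CL1 replicate 1, gave 0 to 4, 0 to 17 and 0 to 8; where 1 CX3CL1 library remained, it is assumed to vary like the other groups.

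Correlations of deviations ran from -0.0782 to 0.0511 between same-numbered libraries and from -0.0660 to 0.0811 between differently numbered ones. They show no sign of pairing by replicate number, but with so few libraries per group they cannot exclude it. With the replicate block, no member was called with all 9 libraries, and 1, 10 and 5 were without CX3CL1 replicate 1, where the block lost E2f2 between CX3CL1 and BSA at adjusted p = 0.0681 and gained Mki67 there (0.0412), and lost Ccne2 between CCL26 and BSA at 0.0515, and Cdc6 (0.0525) and Ccnb1 (0.0515) between CCL26 and CX3CL1. Its medians there were 0.0711 for G1/S between CX3CL1 and BSA, and -0.103 for G1/S and -0.0491 for G2/M between CCL26 and CX3CL1.

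The G1/S median between CX3CL1 and BSA, 0.15, was 0.19 with upper quartile scaling, 0.0709 with quality weights, 0.0661 under DESeq2 and 0.0656 under limma-voom without CX3CL1 replicate 1, 0.0623 with the length offset, 0.0724 with that offset and without the library, and 0.10 with D cyclins counted in. It ran from 0.0242 to 0.243 with libraries left out. Between CCL26 and CX3CL1 the G1/S median, -0.14, was -0.20 with upper quartile scaling, -0.10 with quality weights, -0.19 with the length offset and -0.11 with the offset and without the library, and -0.161 to -0.0880 with libraries left out. The G2/M median between CX3CL1 and BSA, 0.06, ran from -0.0171 to 0.130 with libraries left out. Between CCL26 and CX3CL1 the G2/M median, 0.03, was -0.0520 with quality weights, -0.0602 under DESeq2 and -0.0594 under limma-voom without the library, -0.0524 with the length offset and without the library, and -0.0716 to 0.122 with libraries left out. The cause of these changes was not tested.

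Mcm4 between CCL26 and CX3CL1, 0.03 with all 9 libraries, turned to -0.00305 with upper quartile scaling, -0.21 with quality weights, -0.22 without CX3CL1 replicate 1, -0.26 with the block there, -0.23 under DESeq2 there, -0.22 under limma-voom there, -0.22 with the length offset there, and -0.28 to 0.23 with libraries left out. Ccnb1 in that comparison, -0.05, ran from -0.203 to 0.0315, turning positive without CX3CL1 replicate 2 (0.00439) or 3 (0.0315). Signs of the other named calls held under all alternatives run.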
